A study of Mus musculus with 4 samples.

Results

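The genes described here bear on 3 small-molecule defences of macrophages, namely itaconate, nitric oxide and superoxide. Most make or feed them, while Arg1 competes for the arginine of nitric oxide synthesis and Sod2 removes superoxide. They are Acod1, Nos2, Gch1, Slc7a2, Arg1, Cybb, Ncf1 and Sod2, chosen by symbol. All 8 were in the deposited table of 14432 genes. Their levels were followed over 4 single-cell libraries and over the clusters that the authors had named.

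The cells were bone marrow-derived macrophages (BMDMs), primary macrophages grown from mouse marrow in the growth factor M-CSF at 50 ng/mL. Donor mice were 8 to 12 weeks old, and the series title concerns the calcium channel TRPV4 and NF-kB signalling in lung inflammation. The 4 groups were BMDMs labelled Trpv4-null given lipopolysaccharide (LPS, a bacterial cell wall component sensed by TLR4) at 100 ng/mL for 24 h, wild-type BMDMs given the same LPS, untreated BMDMs labelled Trpv4-null, and untreated wild-type BMDMs. Wild type is C57BL/6J in the sample titles and C57BL/6 in the growth protocol. Neither the strain background of the null mice nor the deleted stretch of Trpv4 is stated in the sources used here. The design text names 3 mice per genotype and 12 samples, but no cell is tied to a mouse, so each group was 1 library with an unknown mixture of mice. There was therefore no replicate error and no test. Intervals are 95% intervals for counting error only.

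Activated macrophages turn several metabolic enzymes into defences. Acod1 (also called Irg1) removes a carboxyl group from the tricarboxylic acid cycle intermediate cis-aconitate and so makes itaconate, which inhibits succinate dehydrogenase and bacterial isocitrate lyase. Nos2, the inducible nitric oxide synthase, makes nitric oxide from arginine and needs tetrahydrobiopterin, whose synthesis starts with Gch1 (GTP cyclohydrolase 1), while Slc7a2 (the cationic amino acid transporter CAT2) carries arginine into the cell and Arg1 (arginase 1) splits the same arginine into ornithine and urea. Cybb (gp91phox) is the catalytic, membrane-bound subunit of the phagocyte NADPH oxidase and Ncf1 (p47phox) the cytosolic organiser that joins it on activation. Sod2 is the mitochondrial manganese superoxide dismutase, which turns superoxide into hydrogen peroxide.

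The libraries held 6565 cells and 109030958 unique molecular identifiers (UMIs, counted transcripts) for Trpv4-null with LPS, 8288 cells and 144090985 UMIs for wild type with LPS, 5485 cells and 47000669 UMIs for untreated Trpv4-null, and 7028 cells and 43731003 UMIs for untreated wild type. Median UMIs per cell were 16041, 16673.5, 7893 and 5660.5 in the same order. The median mitochondrial share of a cell's UMIs was 3.19%, 3.05%, 6.13% and 6.06%, higher in the untreated library under both labels. Trpv4, the targeted gene, went against the labels. It stood at 9.62 CPM (UMIs of the gene per 1000000 UMIs of the library) in the LPS library labelled Trpv4-null and 2.07 CPM in the wild-type one (ratio 4.65, interval 4.09 to 5.31), and at 8.60 and 5.83 CPM in the untreated pair (ratio 1.47, 1.26 to 1.73). Reads outside the deleted part would check nothing, and every direction between genotypes below rests on a label that Trpv4 itself does not follow. All 12 macrophage markers reached 20 CPM in every library. The neutrophil list summed to 26.1 and 48.5 CPM in the LPS libraries (labelled Trpv4-null, then wild type) against 293 and 177 CPM untreated, with 3 of the 7 markers in the table reaching 20 CPM in a library. By cells the direction was the other way. At a limit of 3 neutrophil marker UMIs, 99 and 161 LPS cells were picked out (1.51% and 1.94%). Only 11 and 7 untreated cells were (0.201% and 0.0996%). The neutrophil sum is thus not a measure of how many neutrophils each library held. The monocyte list summed to 964 and 864 CPM against 65.7 and 64.6 CPM, led by Ms4a4c, with 2 of 6 markers reaching 20 CPM. Of 27366 cells, 148 shared a barcode with a cell of another library, and leaving them out moved no count of the 8 genes.

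After 24 h of LPS, Acod1, Nos2, Gch1, Slc7a2, Cybb and Sod2 stood far above their untreated levels under both genotype labels, Arg1 did so at a very low level, and Ncf1 stood near its untreated level. A gene was compared where the higher library had at least 20 CPM and 30 UMIs. With the label Trpv4-null, 6 of the 8 could be compared and 5 were at least 2-fold higher after LPS, while 7.3% of 6340 genes were. In wild type 6 could be compared and 5 were at least 2-fold higher, against 6.9% of 6332 genes. None was at least 2-fold lower, against 21.3% and 17.7% of genes, so that 28.6% and 24.6% of genes were at least 2-fold apart in either direction. The median log2 ratio, taken on CPM plus 1, was 3.62 and 2.44 over the compared members and -0.42 and -0.39 over all genes compared. The member medians are over different genes and should not be set against each other. Nos2 entered with the label Trpv4-null alone, and Slc7a2 in wild type alone. Scaling by TMM factors or by median-of-ratios size factors in place of total UMIs raised the LPS ratios of well-detected genes by 0.52 to 0.61 on the log2 scale. The share of genes at least 2-fold higher was then 15.9% and 16.6% with the label Trpv4-null and 13.8% and 14.1% in wild type, and that of genes at least 2-fold lower 7.52% and 7.3%, and 6.39% and 6.38%. The members' counts were unchanged at 5 and 5, and ratios near 0 should be read against the all-gene medians. The 2 genes left out were Arg1 and Slc7a2 with the label Trpv4-null, and Arg1 and Nos2 in wild type, each for a level under 20 CPM.

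**Figure D1:**
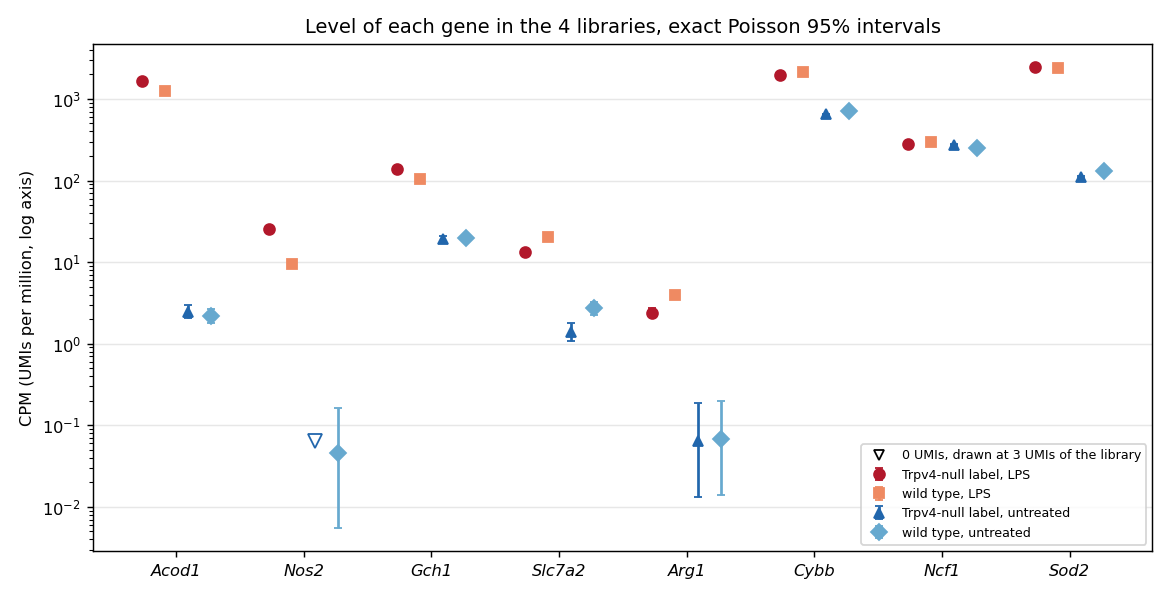
Level of the 8 genes in CPM (log axis) in each of the 4 libraries, with exact Poisson 95% intervals; an open triangle marks 0 UMIs. The LPS libraries lie far above the untreated ones for Acod1 (1652 and 1236 CPM against 2.47 and 2.20 CPM), Nos2 and Sod2, and all 4 libraries lie together for Ncf1.

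Acod1 had the 4th highest LPS ratio of all genes compared with the label Trpv4-null and the 3rd highest in wild type. It stood at 1652 CPM (1645 to 1660) in the LPS library labelled Trpv4-null and 1236 CPM (1230 to 1242) in the wild-type LPS library, against 2.47 CPM (2.04 to 2.96) and 2.20 CPM (1.78 to 2.68) in the untreated libraries labelled Trpv4-null and wild type. This was 669-fold (558 to 810) and 563-fold (461 to 695) higher after LPS. The difference lay in nearly every cell, since 99.6% of cells labelled Trpv4-null and 98.9% of wild-type cells had an Acod1 UMI after LPS, against 0.857% and 0.626% untreated. With each cell thinned to 3000 UMIs, which evens out depth, the shares were 95.1% and 90.7% against 0.341% and 0.393%. Cells with an Acod1 UMI held a median of 22 and 17 such UMIs after LPS, against 1 and 1 untreated. None of the 9 cluster names gave a cell type outside the macrophages that would not express these genes, so the share that free RNA gives could not be measured.

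**Figure D2:**
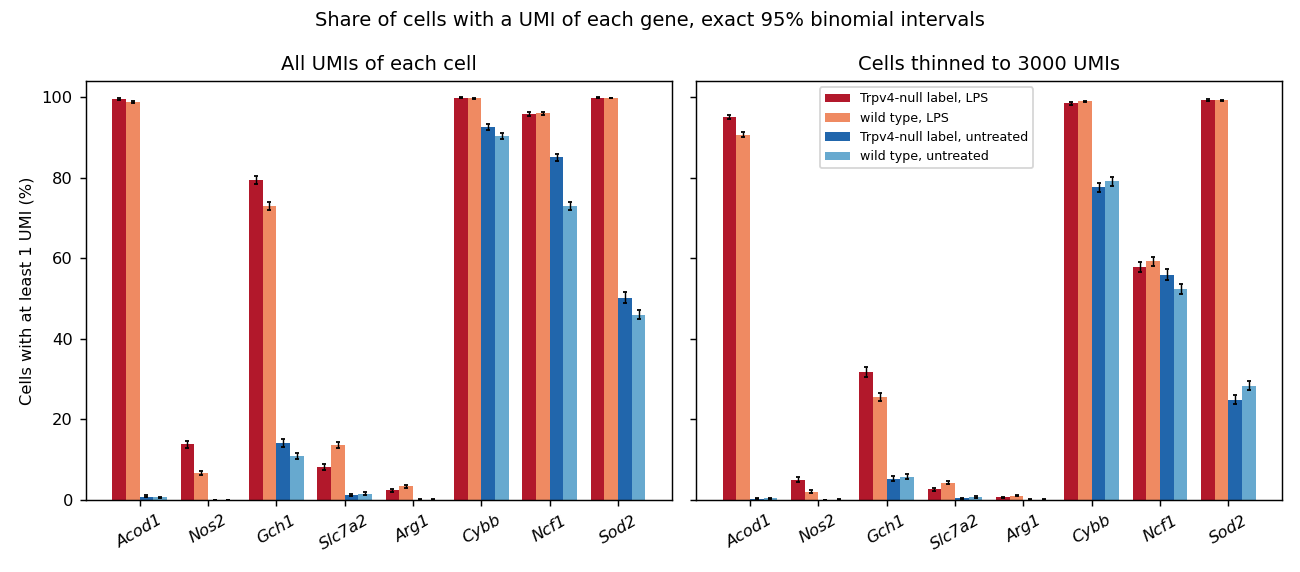
Percent of cells with at least 1 UMI of each gene in the 4 libraries (bars, exact binomial 95% intervals), from all UMIs at left and with cells thinned to 3000 UMIs at right. Acod1, Sod2 and Cybb were seen in over 98% of cells of both LPS libraries with all UMIs, whereas Nos2, Slc7a2 and Arg1 were each seen in under 14% of them.

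The Acod1 gene lies on chromosome 14 at 103046977 to 103056573 on the plus strand (GRCm38). RefSeq promoter windows (build GRCm38.p6, 250 bases before to 50 after the start site) matched 5 of the 8 genes, namely Acod1, Gch1, Sod2, Cybb and Ncf1. Each window was searched on both strands for the kappaB-like motifs GGGNNTTCC and GGNNTTTCC (held by 5.82% and 5.82% of 32851 promoters), for the interferon-stimulated response element core GAAANNGAA (8.56%), for the STAT-like motif TTCNNNGAA (8.30%) and for the AP-1 motif TGACTCA (5.20%). The Acod1 window, chr14:103046762-103047061, is shown because this gene had the largest log2 LPS ratio of the 8. Capitals mark its 1 match, to GGNNTTTCC on the minus strand, which begins 85 bases before the start site.
Acod1: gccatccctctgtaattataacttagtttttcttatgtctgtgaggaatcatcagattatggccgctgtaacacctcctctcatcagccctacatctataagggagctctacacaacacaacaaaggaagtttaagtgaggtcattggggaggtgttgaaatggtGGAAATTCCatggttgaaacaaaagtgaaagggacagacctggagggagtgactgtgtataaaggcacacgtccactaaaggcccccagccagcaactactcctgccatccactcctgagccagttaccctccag
A match is a description of the letters and not a binding site.

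In the clusters, Acod1 was high everywhere after LPS. Over 8 of the 9 clusters, those that held 100 or more cells in every library, it ran between 1156 CPM (High_Apoe) and 2297 CPM (Ifit1bl1+_Cmpk2+) with the label Trpv4-null, and between 878 and 1727 CPM in the same clusters of wild type. Untreated Acod1 was concentrated in few cells. In the cluster Ifit1bl1+_Cmpk2+, which the authors named for an interferon-inducible gene pair, it stood at 41.1 CPM with the label Trpv4-null (70 UMIs in 19 of 179 cells) and 26.6 CPM in wild type (33 UMIs in 8 of 177 cells). That cluster held 3.26% and 2.52% of untreated cells and 60.3% and 34.4% of the untreated Acod1 UMIs. The cluster Il1b+_Cxcl2+ held another 28.4% and 36.5%, at 4.92 and 5.61 CPM. In the other 6 clusters untreated Acod1 ran between 0.142 and 1.53 CPM with the label Trpv4-null and between 0.248 and 6.78 CPM in wild type. The 10 cells with most Acod1 UMIs held 55.2% and 58.3% of them in the untreated libraries, against 0.775% and 0.646% after LPS. Clusters are the authors' and were built on the expression of these cells, so differences between clusters are descriptions.

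Among 23 genes of the tricarboxylic acid cycle and of itaconate synthesis and breakdown, 20 could be compared. Acod1 alone was at least 2-fold higher after LPS under either label. Idh1, the cytosolic isocitrate dehydrogenase, Idh3g, a subunit of the mitochondrial one, and Fh1, fumarate hydratase, were at least 2-fold lower under both. By total UMIs these 3 lower and 1 higher of 20 are no larger a share than over all genes, where 21.3% and 17.7% were lower and 7.3% and 6.9% higher. Idh1 stood at 57.3 and 63.6 CPM after LPS (labelled Trpv4-null and wild type) against 239.5 and 229.6 CPM untreated. Fh1 stood at 19.3 and 20.9 CPM against 97.0 and 54.4 CPM, and Idh3g at 44.2 and 43.1 CPM against 102 and 87.8 CPM. The median log2 ratio of the list was -0.25 and -0.17, near the all-gene medians. With the other scalings the median was 0.33 to 0.36, and Sdhb and Mdh2 (and in wild type Idh3a) joined Acod1 above 2-fold. Idh1 alone then stayed at least 2-fold lower under both labels. Of all genes, 13.8% to 16.6% were higher and 6.38% to 7.52% lower with those scalings. The succinate dehydrogenase subunits Sdha, Sdhb, Sdhc and Sdhd, part of the complex that itaconate inhibits, lay between -0.44 and 0.56 on the log2 scale by total UMIs.

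Nos2 was close to undetected before LPS and was found in a minority of cells after it. It stood at 25.3 CPM (24.3 to 26.2) in the LPS library labelled Trpv4-null and 9.42 CPM (8.92 to 9.93) in the wild-type LPS library. The untreated library labelled Trpv4-null had 0 Nos2 UMIs in 5485 cells, which by 3 counts of the total allows up to 0.0547% of cells with a Nos2 UMI (exact upper limit 0.0672%), and the untreated wild-type library had 2 UMIs. Against a floor of 3 UMIs in the library, Nos2 was at least 396-fold higher after LPS with the label Trpv4-null, and the exact interval of that ratio starts lower, at 322. In wild type the ratio was 206 (56.9 to 1702). A Nos2 UMI was found in 13.8% (13.0 to 14.7) of cells labelled Trpv4-null and 6.71% (6.18 to 7.27) of wild-type cells after LPS, and in 5.04% and 2.03% of cells thinned to 3000 UMIs.

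Over the 8 larger clusters the Nos2 UMIs were unevenly spread. Ifit1bl1+_Cmpk2+ had the highest level, 115 CPM with the label Trpv4-null and 53.2 CPM in wild type, and Tmem176+ the lowest, 1.98 and 0.603 CPM. In Ifit1bl1+_Cmpk2+ 38.8% and 25.5% of cells had a Nos2 UMI, against 4.34% and 2.71% in the cluster Macrophage, at median depths of 16375.5 and 16398 UMIs per cell in the first and 13359 and 13564.5 in the second. After thinning the shares were 18.5% and 10.8% against 1.42% and 0.821%. The cluster Ifit1bl1+_Cmpk2+ held 11.0% and 10.4% of LPS cells and 50.8% and 59.0% of the Nos2 UMIs. Proliferating came next of the 8, at 38.7 and 11.2 CPM. Of the cells with 10 or more Nos2 UMIs, 35 of 44 (labelled Trpv4-null) and 13 of 14 (wild type) lay in Ifit1bl1+_Cmpk2+.

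Gch1, the entry step to the cofactor of Nos2, was present before LPS and higher after it. It stood at 137 CPM (135 to 139) and 105 CPM (103.5 to 107) in the LPS libraries labelled Trpv4-null and wild type, against 19.4 CPM (18.1 to 20.7) and 19.6 CPM (18.3 to 20.9) untreated. After LPS the level was thus 7.08-fold (6.63 to 7.58) and 5.37-fold (5.02 to 5.76) higher. The share of cells with a Gch1 UMI was 79.3% and 72.9% after LPS against 14.1% and 10.8% untreated, and 31.8% and 25.6% against 5.21% and 5.74% at 3000 UMIs per cell. In each of the 4 libraries the level was highest in Ifit1bl1+_Cmpk2+, at 181 and 144 CPM after LPS and 57.6 and 64.4 CPM untreated, where the other 7 clusters lay between 13.5 and 24.2 CPM untreated. The LPS ratio was lowest in that cluster, at log2 1.63 with the label Trpv4-null and 1.15 in wild type. None of the motifs searched was found in the Gch1 window, chr14:47189364-47189663.

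The other enzymes of tetrahydrobiopterin synthesis and recycling did not share the Gch1 ratio. Of 5 genes compared, Gch1 alone was at least 2-fold higher under both labels and under all 3 scalings. By total UMIs 7.3% and 6.9% of all genes were higher, and 13.8% to 16.6% with the other scalings. Pts, the second enzyme of the synthesis, stood at 34.3 and 38.4 CPM after LPS against 64.0 and 59.9 CPM untreated. Spr, sepiapterin reductase, the last enzyme, stood at 20.6 and 22.7 CPM against 21.9 and 23.9 CPM. The recycling enzymes Qdpr (50.2 and 57.03 against 64.6 and 70.9 CPM) and Pcbd2 (54.6 and 59.7 against 54.3 and 57.5 CPM) were also close to their untreated levels. Gchfr, the feedback regulator of GTP cyclohydrolase, was at most 0.457 CPM in each library. Pcbd1 was not analysed here.

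Slc7a2, the arginine transporter, was found in few cells under each condition. It stood at 13.2 CPM (12.5 to 13.9) and 20.2 CPM (19.5 to 21.0) in the LPS libraries labelled Trpv4-null and wild type, against 1.40 CPM (1.09 to 1.79) and 2.74 CPM (2.28 to 3.28) untreated. These levels gave LPS ratios of 9.38 (7.33 to 12.2) and 7.37 (6.14 to 8.92). A UMI was found in 8.21% and 13.6% of cells after LPS against 1.17% and 1.58% untreated, and in 2.63% and 4.32% against 0.398% and 0.802% at 3000 UMIs. After LPS the cluster Cd74+ had the highest level of the 8 (49.3 and 52.3 CPM) and High_Apoe the lowest (2.48 and 5.20 CPM). In the 2 of these clusters where Nos2 was highest, Slc7a2 was in the middle of the range, at 9.24 and 16.9 CPM in Ifit1bl1+_Cmpk2+ and 9.44 and 20.8 CPM in Proliferating.

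Arg1, which competes for the same arginine, was near its detection limit. Each untreated library had 3 Arg1 UMIs, and the LPS libraries had 261 UMIs (2.39 CPM, 2.11 to 2.70) with the label Trpv4-null and 574 UMIs (3.98 CPM, 3.66 to 4.32) in wild type. Ratios from so few untreated UMIs were imprecise, at 37.5 (12.7 to 183) and 58.1 (19.8 to 282). A UMI was found in 2.38% and 3.35% of LPS cells. Few cells carried much of it, since the 10 cells with most Arg1 UMIs held 29.1% and 25.6% of the total. In the small cluster High_Btg1 of the wild-type LPS library (36 cells), Arg1 reached 75.5 CPM from 48 UMIs, or 8.36% of the library's Arg1 UMIs in 0.434% of its cells. With the label Trpv4-null the same cluster had 4 UMIs in 23 cells.

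Apart from Il4ra, the compared genes of alternative activation, the state that Arg1 marks in cells given interleukin-4, did not follow Arg1. Mrc1, the mannose receptor, stood at 51.4 and 64.0 CPM after LPS against 506 and 510.6 CPM untreated. Clec10a, a galactose-binding lectin, stood at 1.15 and 1.51 CPM against 24.7 and 32.9 CPM, and Pparg, a lipid-sensing nuclear receptor, at 2.74 and 2.12 CPM against 17.1 and 31.8 CPM. Il4ra, the interleukin-4 receptor chain, was at least 2-fold higher, at 178 and 184 CPM against 87.3 and 78.4 CPM. Over the list, 2 of 3 genes compared were at least 2-fold lower with the label Trpv4-null and 3 of 4 in wild type, under all 3 scalings. By total UMIs 21.3% and 17.7% of all genes were lower and 7.3% and 6.9% higher. With the other scalings 6.38% to 7.52% were lower. Mgl2, another lectin gene of the list, was at most 1.37 CPM in each library.

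Among the other genes of arginine transport and use, Ass1 (argininosuccinate synthase, which recycles citrulline towards arginine) stood at 94.4 and 86.6 CPM after LPS against 4.47 and 3.00 CPM untreated. Asl, the next enzyme, stood at 35.9 and 34.7 CPM against 46.6 and 42.8 CPM. Sat1, which acetylates polyamines, stood at 258 and 257 CPM against 727 and 870.4 CPM. Odc1, which makes the polyamine putrescine from ornithine, stood at 30.7 and 26.7 CPM against 26.8 and 36.4 CPM. Of 7 genes compared in each genotype, 2 were at least 2-fold higher (Nos2 and Ass1 with the label Trpv4-null, Slc7a2 and Ass1 in wild type) and 1, Sat1, lower, where 7.3% and 6.9% of all genes were higher and 21.3% and 17.7% lower. With either of the other scalings Sat1 was no longer 2-fold lower with the label Trpv4-null (log2 -0.91 and -0.88). Also in the list, under 20 CPM, were the transporter Slc7a1 (11.3 and 14.2 against 2.23 and 3.09 CPM) and the mitochondrial arginase Arg2 (8.14 and 8.55 against 1.28 and 1.12 CPM).

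**Figure D3:**
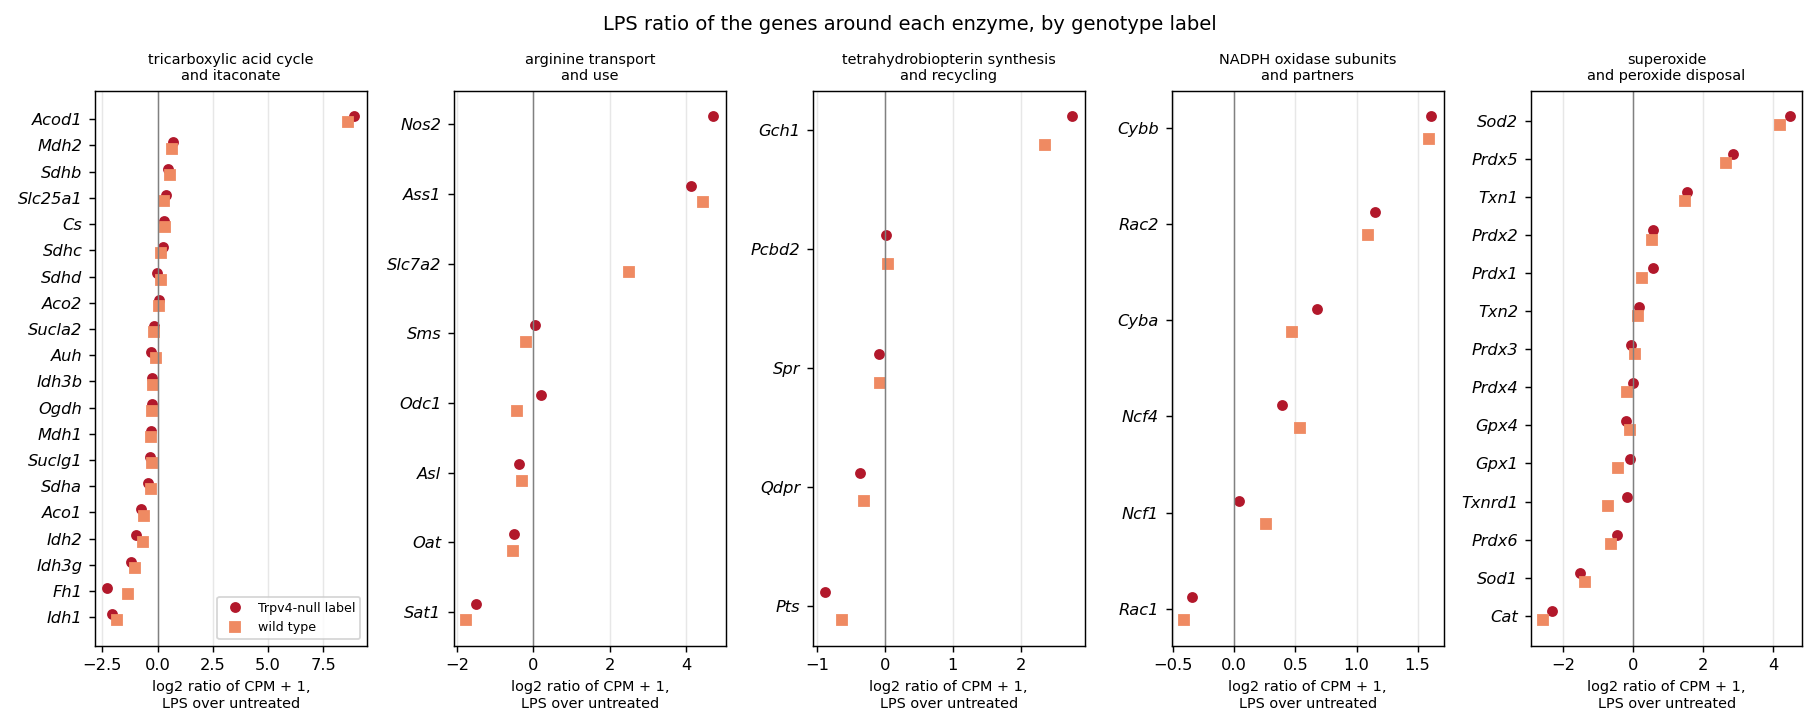
Log2 ratio of LPS over untreated (CPM plus 1) of compared genes of 5 pathway lists, for the libraries labelled Trpv4-null (circles) and wild type (squares). Acod1, Gch1 and Sod2 stand at the top of their lists, at 8.90 and 8.60, 2.76 and 2.37, and 4.48 and 4.18, and most other genes of those lists lie between -1 and 1.

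Cybb, the catalytic oxidase subunit, was abundant before LPS and about 3-fold higher after it. It stood at 1979 CPM (1970 to 1987) and 2165 CPM (2158 to 2173) in the LPS libraries labelled Trpv4-null and wild type, against 647 CPM (640 to 654) and 718 CPM (710 to 726) untreated. The LPS ratio was 3.06 (3.02 to 3.09) and 3.02 (2.98 to 3.05). Over clusters the ratio was lowest in Ifit1bl1+_Cmpk2+ (log2 0.69 and 0.75), whose untreated level was the highest (1014 and 1070 CPM), and highest in Il1b+_Cxcl2+ (1.82 and 1.85). A Cybb UMI was found in 99.9% and 99.8% of LPS cells against 92.7% and 90.4% of untreated cells.

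Ncf1, the organiser subunit, stood apart from the other 7 genes in its small LPS ratio. It stood at 283 CPM (280 to 286) and 299.6 CPM (297 to 302) in the LPS libraries labelled Trpv4-null and wild type, against 276 CPM (271 to 281) and 251 CPM (246 to 255) untreated. The LPS ratio was 1.03 (1.01 to 1.05) and 1.20 (1.17 to 1.22). At log2 0.04 and 0.26 it was above the all-gene medians of -0.42 and -0.39 but under 2-fold with each scaling tried. Within clusters the ratio was above 0 in 4 and below 0 in 4 with the label Trpv4-null, and above 0 in 7 and below 0 in 1 in wild type, so its direction was not uniform. Cells thinned to 3000 UMIs had an Ncf1 UMI in 57.8% and 59.2% of LPS cells and 55.9% and 52.4% of untreated cells. The gene lies on chromosome 5 at 134220053 to 134229625 on the minus strand (GRCm38). It overlaps Gtf2ird2 on the plus strand, which had at most 6.01 CPM. Use of strand in counting is not stated, so any effect of the overlap on the Ncf1 counts could not be measured.

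The promoter windows of both oxidase genes are shown because the genes differed in their LPS ratio while both windows held motifs of the set. In the Cybb window, chrX:9469275-9469574 on the minus strand, capitals mark 3 matches to GAAANNGAA, 1 on the strand of the gene beginning 29 bases before the start site and 2 on the other strand beginning 123 and 167 bases before it. This RefSeq start site lies inside the longer GENCODE gene span (chromosome X, 9435252 to 9487771). In the Ncf1 window, chr5:134229576-134229875 on the minus strand, capitals mark GGGNNTTCC beginning 51 bases, GAAANNGAA 82 bases and TTCNNNGAA 88 bases before the start site, and the last 2 overlap by 3 bases.
Cybb: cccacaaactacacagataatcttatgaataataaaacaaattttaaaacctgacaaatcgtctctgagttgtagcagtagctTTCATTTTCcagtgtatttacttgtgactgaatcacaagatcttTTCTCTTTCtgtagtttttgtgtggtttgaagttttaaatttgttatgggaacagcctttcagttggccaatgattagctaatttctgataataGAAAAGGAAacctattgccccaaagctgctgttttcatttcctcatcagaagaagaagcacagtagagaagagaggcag
Ncf1: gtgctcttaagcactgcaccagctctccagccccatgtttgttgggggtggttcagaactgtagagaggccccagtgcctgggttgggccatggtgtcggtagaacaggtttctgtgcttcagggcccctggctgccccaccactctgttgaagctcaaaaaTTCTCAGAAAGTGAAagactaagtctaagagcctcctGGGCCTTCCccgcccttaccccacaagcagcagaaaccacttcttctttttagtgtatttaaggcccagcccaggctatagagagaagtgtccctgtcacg
The Sod2 window, chr17:13007589-13007888 on the plus strand, held 1 match to TTCNNNGAA, 185 bases before the start site. It too lies inside the longer GENCODE gene span (chromosome 17, 13006846 to 13040063). TGACTCA was found in none of the 5 windows.

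Among the 7 compared genes of the NADPH oxidase, Cybb and Rac2 were at least 2-fold higher after LPS under both labels and none was 2-fold lower. By total UMIs 7.3% and 6.9% of all genes were higher and 21.3% and 17.7% lower. With the other scalings 13.8% to 16.6% were higher. Rac2, the small GTPase that activates the oxidase, stood at 497 and 476 CPM after LPS against 223 and 222 CPM untreated. Cyba (p22phox), the membrane partner of Cybb, stood at 2211 and 2094 CPM against 1379 and 1508 CPM. Ncf4 (p40phox), a cytosolic subunit, stood at 263 and 201 CPM against 201 and 138 CPM. The list's median log2 ratio was 0.39 and 0.47. With the other scalings 3 or 4 genes were at least 2-fold higher, with Cyba or Ncf4 added, and Rac1 changed sign (log2 -0.35 and -0.41 by total UMIs, 0.11 to 0.26 otherwise). Cybc1 was not analysed here.

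Sod2 was higher after LPS by a similar factor in every cluster. It stood at 2448 CPM (2439 to 2458) and 2391 CPM (2383 to 2399) in the LPS libraries labelled Trpv4-null and wild type, against 109 CPM (106 to 112) and 131 CPM (127 to 134) untreated. The LPS ratio was 22.4 (21.8 to 23.1) and 18.3 (17.8 to 18.8). Over clusters it ran from log2 3.96 to 4.67 with the label Trpv4-null and 3.83 to 4.31 in wild type. A Sod2 UMI was found in 99.3% and 99.2% of LPS cells thinned to 3000 UMIs, against 24.9% and 28.4% of untreated ones.

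Of 14 compared genes of superoxide and peroxide disposal, 3 were at least 2-fold higher after LPS under both labels (Sod2, Prdx5 and Txn1) and 2 at least 2-fold lower (Cat and Sod1). Over all genes 7.3% and 6.9% were higher and 21.3% and 17.7% lower by total UMIs, so by that scaling the lower share is no larger than in the background. Prdx5, a peroxiredoxin found in mitochondria and peroxisomes, stood at 2713 and 2675 CPM after LPS against 379 and 424 CPM untreated. Txn1, the cytosolic thioredoxin, stood at 1307 and 1310 CPM against 447 and 469 CPM. The peroxisomal catalase Cat stood at 52.8 and 57.6 CPM against 267 and 347 CPM, and Sod1, the copper and zinc superoxide dismutase of the cytosol, at 92.3 and 98.5 CPM against 265 and 258 CPM. The list's median was -0.03 and -0.01. With the other scalings Prdx2 (and Prdx1 with the label Trpv4-null) joined the higher genes. Cat then stayed at least 2-fold lower and Sod1 did not, with a log2 ratio still below 0 (-0.93 to -0.85). Of all genes, 13.8% to 16.6% were higher and 6.38% to 7.52% lower with those scalings.

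Between the genotype labels after LPS, Nos2 was the member that differed most. Of 7 members compared, 1 was at least 2-fold higher with the label Trpv4-null, against 0.134% of 5236 genes, and 0 were at least 2-fold lower, against 0.0573% (0.191% in either direction). The 1 was Nos2, which stood at 25.3 CPM with the label Trpv4-null and 9.42 CPM in wild type, a ratio of 2.68 (2.51 to 2.86). Only the first level reaches the 20 CPM limit. Nos2 was thus compared through the library where it was high, and the count is a description. The Nos2 ratio was above 1 in all 8 clusters, with an interval above 1 in each. Its log2 value ran from 0.68 in Macrophage (4.46 and 2.40 CPM) to 1.71 in Proliferating (38.7 and 11.2 CPM). Without the 10 cells of each library with most Nos2 UMIs the log2 ratio was 1.37, against 1.33 with them. In the same pair of libraries Trpv4 itself was 4.65-fold higher with the label Trpv4-null, and its part in these values was not tested.

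Acod1 and Gch1 were also higher with the label Trpv4-null after LPS, by less. Acod1 stood at 1652 CPM with the label Trpv4-null and 1236 CPM in wild type (ratio 1.34, 1.33 to 1.35). Gch1 stood at 137 and 105 CPM (ratio 1.30, 1.27 to 1.33). Both ratios were above 1 in all 8 clusters, with every interval above 1, at log2 0.36 to 0.54 for Acod1 and 0.29 to 0.57 for Gch1. Over the library and cluster sums these genes also went together, with a Pearson correlation of 0.98 on log2 values over 32 sums and 0.95 over the 16 sums from LPS libraries. These sums share libraries, depth and the LPS contrast, so the value is a description.

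Slc7a2 and Arg1 were lower with the label Trpv4-null after LPS, the other way from Nos2. Slc7a2 stood at 13.2 CPM with the label Trpv4-null and 20.2 CPM in wild type (ratio 0.651, 0.611 to 0.694). The ratio was below 1 in 7 clusters, with the interval below 1 in 5. It was lowest in Macrophage (log2 -1.17, 4.09 and 10.4 CPM) and above 1 in High_Lpl_Fabp4+ alone (log2 0.01). Arg1 had a ratio of 0.601 (0.517 to 0.697), but its clusters disagreed. In Cd74+ it stood at 0.833 CPM with the label Trpv4-null and 9.27 CPM in wild type, from 4 and 39 UMIs, and in Ifit1bl1+_Cmpk2+ at 4.37 and 1.59 CPM, from 53 and 24 UMIs. Both genes were under 21 CPM in each library, and the 10 richest cells held 16.8% and 9.40% of the Slc7a2 UMIs.

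**Figure D4:**
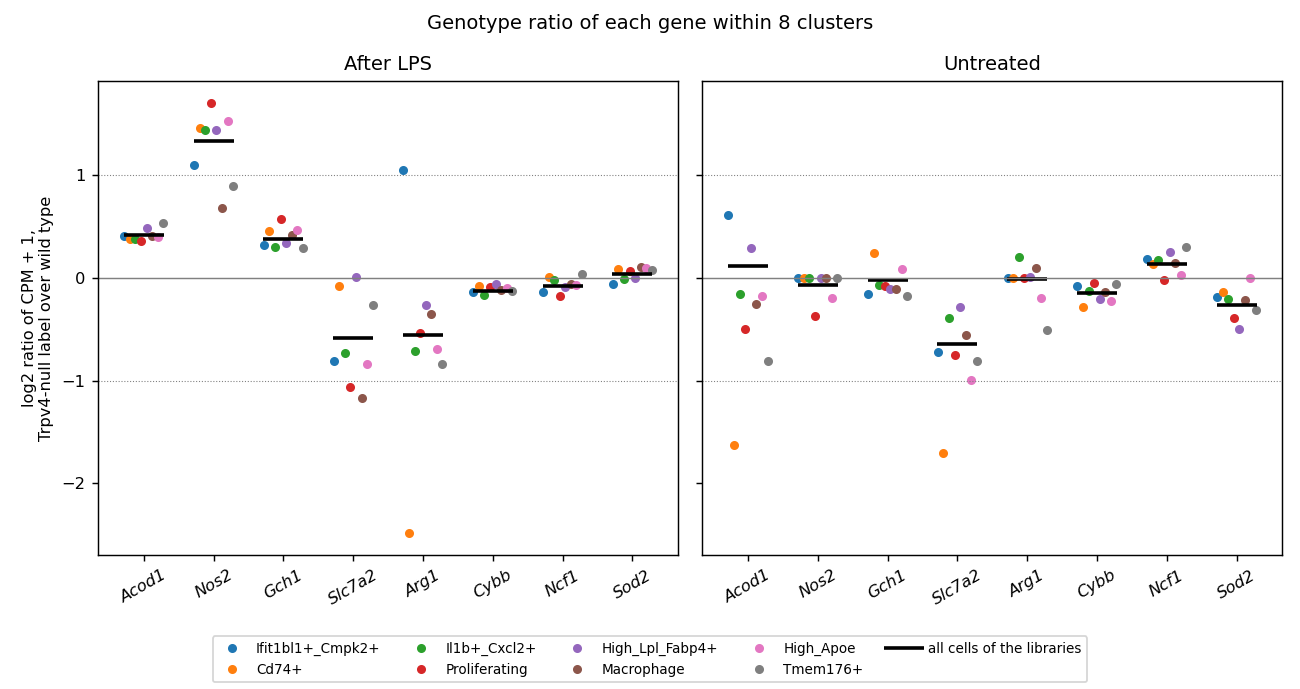
Log2 ratio (CPM plus 1) of the label Trpv4-null over wild type for each gene in 8 clusters (points) and over all cells (bars), after LPS at left and untreated at right, with dotted lines at 2-fold. After LPS all 8 points lie above 0 for Acod1, Nos2 and Gch1 and below 0 for Cybb, and Arg1 is spread from -2.49 (Cd74+) to 1.05 (Ifit1bl1+_Cmpk2+).

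Cybb, Ncf1 and Sod2 lay within 10% of each other between the LPS libraries. The ratio of the label Trpv4-null to wild type was 0.914 (0.909 to 0.919) for Cybb, 0.945 (0.932 to 0.959) for Ncf1 and 1.02 (1.02 to 1.03) for Sod2. The Cybb ratio was below 1 in all 8 clusters both after LPS (log2 -0.16 to -0.06) and untreated (-0.28 to -0.05). Because of the depth, intervals this narrow exclude 1 at differences of a few percent, and the spread between mice is unknown. Ncf4, of the same oxidase, had a genotype ratio of 1.31 after LPS and 1.45 untreated.

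Between the untreated libraries, 3 members could be compared and 0 were at least 2-fold apart, against 0.292% of 6156 genes (0.146% higher and 0.146% lower). Cybb had a ratio of 0.901 (0.887 to 0.916), Ncf1 of 1.10 (1.07 to 1.13) and Sod2 of 0.834 (0.803 to 0.866). The 5 others were under 20 CPM. Of these, Acod1 (1.12, 0.850 to 1.49) and Gch1 (0.989, 0.900 to 1.09) had intervals that held 1, while Slc7a2 had a ratio of 0.512 (0.373 to 0.697) from 66 and 120 UMIs. Slc7a2 was thus lower with the label Trpv4-null in both conditions. Its log2 ratio was below 0 in all 8 untreated clusters, but with the interval below 1 in only 2. These cluster ratios rest on 0 to 34 Slc7a2 UMIs in a cluster of a library. Nos2 and Arg1 had too few UMIs for a ratio between untreated libraries.

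**Figure D5:**
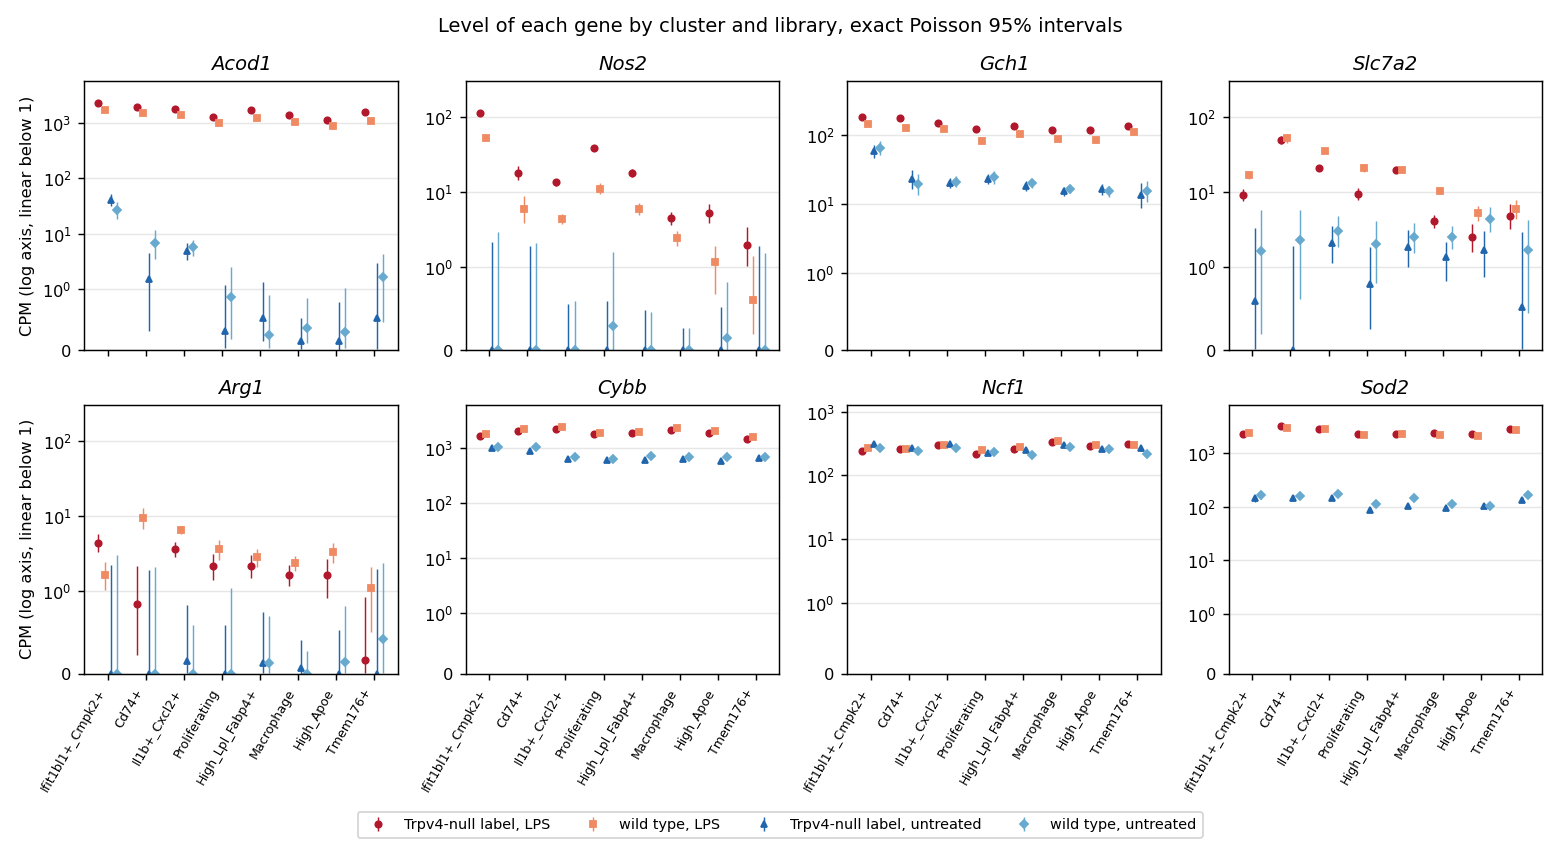
Level of each gene (CPM, log axis, linear below 1) in the 8 larger clusters, by library, with exact Poisson 95% intervals. Nos2 ranges from Ifit1bl1+_Cmpk2+ (115 and 53.2 CPM after LPS) to Tmem176+ (1.98 and 0.603 CPM), untreated Acod1 and Gch1 stand out in Ifit1bl1+_Cmpk2+, and Sod2 and Ncf1 are nearly level across clusters.

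In single cells after LPS, the share with a Slc7a2 UMI was larger among cells with a Nos2 UMI than among cells without. At even depth few cells held both genes, the intervals count cells of 1 library, and the difference was not tested. The only cluster given is Ifit1bl1+_Cmpk2+, where Nos2 was highest. Of 907 cells labelled Trpv4-null with a Nos2 UMI, 15.4% (13.1 to 18.0) also had a Slc7a2 UMI, against 7.05% (6.40 to 7.75) of cells without Nos2. In wild type these shares were 21.2% and 13.1%. Cells with Nos2 were deeper, at a median of 18343 and 18694.5 UMIs against 15646 and 16499.5. At 3000 UMIs per cell the shares were 3.99% (2.14 to 6.72) and 2.55% (2.17 to 2.98) with the label Trpv4-null and 7.83% (4.24 to 13.0) and 4.25% (3.82 to 4.72) in wild type, from 13 and 13 cells with both genes. Within Ifit1bl1+_Cmpk2+ they were 6.06% (2.65 to 11.6) and 1.03% (0.380 to 2.23) with the label Trpv4-null and 7.53% (3.08 to 14.9) and 2.99% (1.91 to 4.46) in wild type. Over all cells again, at 3000 UMIs per cell, a Gch1 UMI was found in 38.7% of cells with Nos2 with the label Trpv4-null, against 31.4% without. In wild type the Gch1 shares were 44.0% and 25.2%. These cells come from all clusters together, and both genes were highest in Ifit1bl1+_Cmpk2+. For Arg1 the shares over all cells were 0.613% against 0.618% and 3.61% against 1.04%, from 2 and 6 cells with both.

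Over the 32 library and cluster sums, 7470 genes were ranked by how closely their log2 levels followed each member. Among the closest to Acod1 were Bst2 and Psme2 (Pearson r 0.98 to 0.99), for Gch1 the interferon-inducible genes Isg15, Phf11a and Ifi205 (0.98 to 0.99) and for Sod2 Fpr1, Cfb and Prdx5 (0.99 each). For Cybb they were Snx10, Gsap and Ccl5 (r 0.97 each). For Nos2 they were Lipg, AA467197 and Slc28a2 (0.90 to 0.92), for Slc7a2 the chemokine Cxcl3, Procr and Il1a (0.89 to 0.94) and for Arg1 Il1a, Fabp7 and Rasgrp1 (0.88 to 0.89). Ncf1 had no gene as close, with Rhog, Birc3 and Cfp at 0.68 to 0.70. By Spearman's rho 0 to 2 of the closest 3 genes of a member stayed among its closest 3, so the order among close genes depends on the measure. The sums share libraries and the LPS contrast, and the values are descriptions.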

How the data were processed

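Single-cell RNA libraries of 4 BMDM groups were analysed, 1 library a group. The deposited table holds raw UMI counts per gene and cell, per the file headers, and was used as deposited. A metadata table by the authors gives each cell's library, cluster, UMI and gene counts and the fraction of its UMIs that were mitochondrial, which served to describe the libraries alone. Cell Ranger 3.1.0, Seurat 4, R 4.2 and the build mm10 are named, without roles, in the submitters' processing notes. The authors' filters on cells, doublet removal, use of strand in counting and clustering genes are not stated in the sources used here, and no doublet caller was run.

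From these, counts were summed per library and per cluster and divided by the library or cluster total (CPM). Levels have exact Poisson, ratios exact conditional binomial and shares exact Clopper-Pearson intervals at 95%. Before log2 ratios were taken 1 CPM was added to each level as a pseudocount, which draws the ratios of low genes towards 0. A gene was compared at 20 CPM and 30 UMIs in the higher library, a ratio was counted from 2-fold, and 0 UMIs were set to a floor of 3 UMIs per library. Clusters needed 100 cells in every library, which left out High_Btg1. Cells were thinned without replacement to 3000 UMIs, leaving out 93, 122, 209 and 666 shallower cells of the libraries labelled Trpv4-null with LPS, wild type with LPS, untreated Trpv4-null and untreated wild type, or to 1000 UMIs. With 1 library a group no test was possible. Differences between clusters were not tested, since the clusters were built on the same cells.

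The members, gene lists and tests were chosen with earlier results of these data known. Beside the members, up to 4 genes of each list with the largest log2 ratio in a comparison were named, and the 3 genes with the highest Pearson correlation to each member. Sdha, Sdhb, Sdhc, Mdh2, Idh3a, Prdx2, Gchfr, Slc7a1, Arg2 and Mgl2 were named outside this rule, after their values were seen. Some genes that the rule or a list holds are not reported here by name, and counts over the lists include them. Gene positions came from GENCODE M21 on GRCm38 and promoter windows from RefSeq. Gch1 and Slc7a2 overlap annotated genes that have no row in the table. Alternatives were TMM factors, median-of-ratios size factors, a pseudocount of 0.1 CPM, no filter on low values, equal weights for clusters, the cluster Macrophage alone, thinned cells, and leaving out cells with neutrophil marker UMIs or the 10 cells richest in a gene. Leaving out cells that share a barcode across libraries was added after seeing the data. The scripts were tested on simulated data. Python 3.11.15 with numpy 2.4.6, scipy 1.17.1, pandas 2.3.3 and matplotlib 3.10.9 was used, and edgeR 4.0.16 in R 4.3.3 for the TMM factors alone.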

Additional observations from a re-analysis of the deposited data

Results flagged for a closer look

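Sod2 and Ncf1 had genotype ratios on opposite sides of 0 with and without LPS. The log2 ratio of the library labelled Trpv4-null over wild type was 0.034 after LPS and -0.26 untreated for Sod2. For Ncf1 it was -0.081 after LPS and 0.14 untreated. Each is under 2-fold, each condition has 1 library per genotype, and the difference was not tested.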

How the results depend on the processing

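No paired analysis was possible because each group was 1 library, and for the same reason no replicate could be left out. Of the counts of members at least 2-fold apart, 39 of 40 recomputed under an alternative stayed within 1.5 times the reported count. The exception was the comparison of the LPS libraries between genotype labels, which had 0 such members in the cluster Macrophage alone against 1 over all cells. Nos2 was under 20 CPM there, at 4.46 CPM with the label Trpv4-null and 2.40 CPM in wild type (log2 0.68). Over the 10 alternatives the Nos2 log2 ratio between the LPS libraries ran from 0.68 to 1.42, that of Slc7a2 from -1.17 to -0.45 and that of Arg1 from -0.76 to -0.35. The LPS counts ran from 4 in the cluster Macrophage alone to 7 without the filter on low values, under both labels. The wild-type count was also 4 with thinned cells, without cells with neutrophil marker UMIs and without the 10 richest cells, since Slc7a2, at 20.2 CPM over all cells, then lay under 20 CPM, with log2 ratios of 2.46, 2.47 and 2.55. Of 320 log2 ratios, 242 moved by less than their counting error (without bound where a library had 0 UMIs), 78 moved by more and 0 of those past 2-fold changed sign. Thinning moved 57 of 64 shares of cells outside their intervals. The uncalled untreated genotype ratios of Acod1 and Arg1 changed sign in the cluster Macrophage alone, to -0.25 and 0.10, and the cause was not tested.

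Total UMIs, TMM factors and median-of-ratios size factors differ in where they put the untreated libraries. The last 2 raised the LPS log2 ratios of well-detected genes by 0.58 and 0.61 with the label Trpv4-null and by 0.52 and 0.53 in wild type, and moved genotype ratios by at most 0.08. The share of 2-fold genes that were higher after LPS was 25.6% by total UMIs, 67.9% by TMM and 69.5% by median of ratios with the label Trpv4-null, and 28% by total UMIs, 68.4% and 68.8% in wild type. The members' counts did not depend on the scaling, but the sign of genes near 0, such as Rac1, did. Depth limits Arg1 throughout, and Nos2, Acod1 and Slc7a2 in the untreated libraries, where 0 to 120 UMIs carry each level.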

Other observations

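The smallest cluster, High_Btg1, was left out of the comparisons by cluster because it held 23 and 36 cells after LPS (labelled Trpv4-null and wild type) and 3 and 5 cells untreated. After LPS, Nos2 stood there at 40.0 and 26.7 CPM, Slc7a2 at 15.6 and 73.9 CPM and Arg1 at 8.89 and 75.5 CPM. The wild-type cells of this cluster therefore had the highest Slc7a2 and Arg1 levels of any cluster in either LPS library, from 36 cells of 1 library.

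Within the cluster Ifit1bl1+_Cmpk2+ after LPS, 16.1% of cells labelled Trpv4-null with a Nos2 UMI also had a Slc7a2 UMI, against 4.99% of those without. In wild type the shares were 20.4% and 11.5%. At 3000 UMIs per cell these rest on 8 of 132 cells with Nos2 against 6 of 581 without it with the label Trpv4-null, and on 7 of 93 against 23 of 768 cells in wild type. Over the 16 library and cluster sums after LPS, Ncf1 and Nos2 had a Pearson correlation of -0.75, and over all 32 sums of -0.03. These sums share libraries and depth, so the values are descriptions.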
